A study of Mus musculus with 2 samples.

Results

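The genes described here are 43 interferon response genes, chosen by symbol from the 27998 genes of a single-cell RNA count matrix, and 41 of them had at least 1 unique molecular identifier (UMI, a tag that marks 1 captured RNA molecule) in the cells kept. Sp100 and Slfn2 had none. The cells came from the lateral subventricular zone (SVZ), a wall of the brain's ventricle where neural stem cells give rise to neuroblasts, of male C57BL/6 mice. Tissue of 8 mice aged 22 months was pooled for the older library and tissue of 4 mice aged 2 months for the younger one, so each age is 1 library of pooled animals. Both were enriched for cells that stain for GLAST, an astrocyte and stem cell surface protein. Cells staining for O4 (oligodendrocyte lineage), Ter119 (red cells) or CD45 (white blood cells) were gated out, and 8000 sorting events entered each droplet run.

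The 2 libraries are told apart by the last digit of the cell barcode, and no label states which digit belongs to which age. They are called library 1 and library 2 here, and no age was assigned to either. With 1 library a side there is no replicate and no test. Intervals below are exact 95% intervals that cover counting error only, and they are too narrow where the UMIs of a gene pile up in a few cells.

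Interferons are secreted alarm proteins. Type I interferons bind IFNAR1 and IFNAR2, whose kinases JAK1 and TYK2 start the signal; STAT2 and IRF9 are subunits of the resulting complex ISGF3, which binds the interferon-stimulated response element (ISRE) in the promoters of response genes. Interferon gamma instead acts through a gamma-activated site (GAS), and IRF1 carries part of that response. The products sense viral RNA, block viral entry, translation or budding, or modify proteins with ubiquitin-like ISG15, and many of these genes also have a low level in cells that meet no virus.

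The 300 bases around the start of the gene (250 before it and 50 after it) were read from RefSeq (GRCm38.p6) for 36 of the 43 members. Both strands were searched for the ISRE letters (GAAA, any 2 bases, GAAA) and the GAS letters TTCNNNGAA. The ISRE letters stood in 19 of the 36 members (52.8%), against 3.99% of the 27025 mouse genes with a window. The GAS letters stood in 9 of the 36 (25%), against 9.55% of genes, and a GAS match overlapped an ISRE match in Bst2 and Ifitm3. A match of letters is a description and not a measured binding site.

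The following 60-base stretches belong to genes that the results below turn on, and Ifitm2 is shown because it alone was lower in library 1 by 1.5-fold or more in astrocyte-like cells. Each is given 5′ to 3′ along the strand of its gene and ends before the RefSeq start of the gene; by GENCODE starts the Irgm1 stretch lies inside the gene, and those of Gbp3 and Ifitm2 cross its start. Capitals mark the ISRE letters on either strand.
Ifit1, chr19:34640769-34640828, plus strand: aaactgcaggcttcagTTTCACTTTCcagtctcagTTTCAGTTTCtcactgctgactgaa
Ifit3, chr19:34583365-34583424, plus strand: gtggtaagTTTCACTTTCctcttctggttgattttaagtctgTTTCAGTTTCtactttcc
Ifit3b, chr19:34607761-34607820, plus strand: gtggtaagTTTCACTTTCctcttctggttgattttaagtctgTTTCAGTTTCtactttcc
Isg15, chr4:156200856-156200915, minus strand: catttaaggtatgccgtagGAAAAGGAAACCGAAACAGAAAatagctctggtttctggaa
Bst2, chr8:71537565-71537624, minus strand: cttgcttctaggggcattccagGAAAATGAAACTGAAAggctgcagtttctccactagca
Irgm1, chr11:48871421-48871480, minus strand: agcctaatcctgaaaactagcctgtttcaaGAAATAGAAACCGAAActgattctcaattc
Gbp3, chr3:142559977-142560036, plus strand: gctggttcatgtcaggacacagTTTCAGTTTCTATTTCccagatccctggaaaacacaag
Ifitm2, chr7:140955973-140956032, minus strand: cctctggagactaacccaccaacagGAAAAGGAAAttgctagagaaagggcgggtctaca

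Isg15 held 3 overlapping matches, and Bst2, Irgm1 and Gbp3 each held a pair of overlapping matches. Ifit1, Ifit3 and Ifit3b each held 2 separate ones, and the stretches of Ifit3 and Ifit3b were equal at 60 of 60 bases. Ifit2, a neighbour of these 3 genes, held no ISRE letters in its windows. In astrocyte-like cells 12 of 17 measured members with a match were at least 1.5-fold higher in library 1 (median log2 ratio 1.25). Of 9 measured members with a window but no match 6 were (median 1.02), and of 3 without a window 3 were (median 1.42). Of all genes 8.30% were.

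After removal of low-quality barcodes and marked doublets, 1825 cells of library 1 and 2064 cells of library 2 were kept, with a median of 4463 and 5763 UMIs over the 1849 and 2088 deposited barcodes. Cells were clustered without the interferon genes, and 7 classes were named from marker genes, of which 3 are described here; the others are oligodendrocytes, their precursors, ependymal cells and microglia. Astrocyte-like cells, which hold quiescent stem cells and astrocytes together, numbered 648 in library 1 and 553 in library 2. Activated cells, cycling progenitors, numbered 205 and 350, and neuroblasts numbered 361 and 494. Levels are given as CPM, the UMIs of a gene scaled to 1000000 UMIs of the class. Summed markers of astrocytes and quiescent stem cells stood at 40962 CPM (library 1) and 35699 CPM (library 2) in the astrocyte-like class. They stood at 2281 and 1901 CPM in the activated class and at 1555 and 1259 CPM in the neuroblast class. Neuroblast markers summed to 18478 and 16751 CPM in neuroblasts and to 6352 and 6151 CPM in activated cells. Markers of activated cells did not separate these classes, with 12189 and 12141 CPM in the activated class, against 11447 and 12356 CPM among neuroblasts. Neuroblast cluster c6 was led mostly by division genes such as Nusap1, Ube2c and Cenpf beside the neuroblast markers Sp9 and Dlx5, so the neuroblast class includes dividing cells. The unnamed clusters held 491 and 611 cells, and 4 barcode sequences occurred in both libraries.

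In astrocyte-like cells most interferon response genes had higher levels in library 1 than in library 2. Of the 43 members 29 had at least 20 UMIs over both libraries, the minimum for a ratio, and 26 of these 29 were higher in library 1, where 47.9% of all genes were. A difference of at least 1.5-fold upward was seen in 21 of the 29, where 8.30% of all 10512 genes with that minimum reached it, and downward in 1 of the 29, against 10.1% of all genes. The median log2 ratio of CPM (library 1 over library 2) was 1.18 for the members and -0.02 for all genes. The counting interval lay above 0 for 18 members, below 0 for 1 and held 0 for 10. A member near the minimum can reach it through 1 library alone, so these counts describe the measured members and not the whole list. The list was also chosen with earlier results of these data known, so the shares of all genes give scale and are no test. At a minimum of 50 UMIs the count upward was 10, over fewer measured members. The only measured members outside that count were Ifitm2, Ifitm3, Irf9 and Cmpk2, so the smaller count is no smaller effect. The share of all genes was not taken at that minimum. Of the other 14 members 9 had fewer than 20 UMIs, and Zbp1, Sp100, Oas1a, Oasl1 and Slfn2 had none in either library, which allows up to 1.34 CPM in library 1 and 1.49 CPM in library 2 (3 counts, a 1-sided 95% limit; the exact 95% intervals end at 1.64 and 1.84 CPM).

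**Figure D1:**
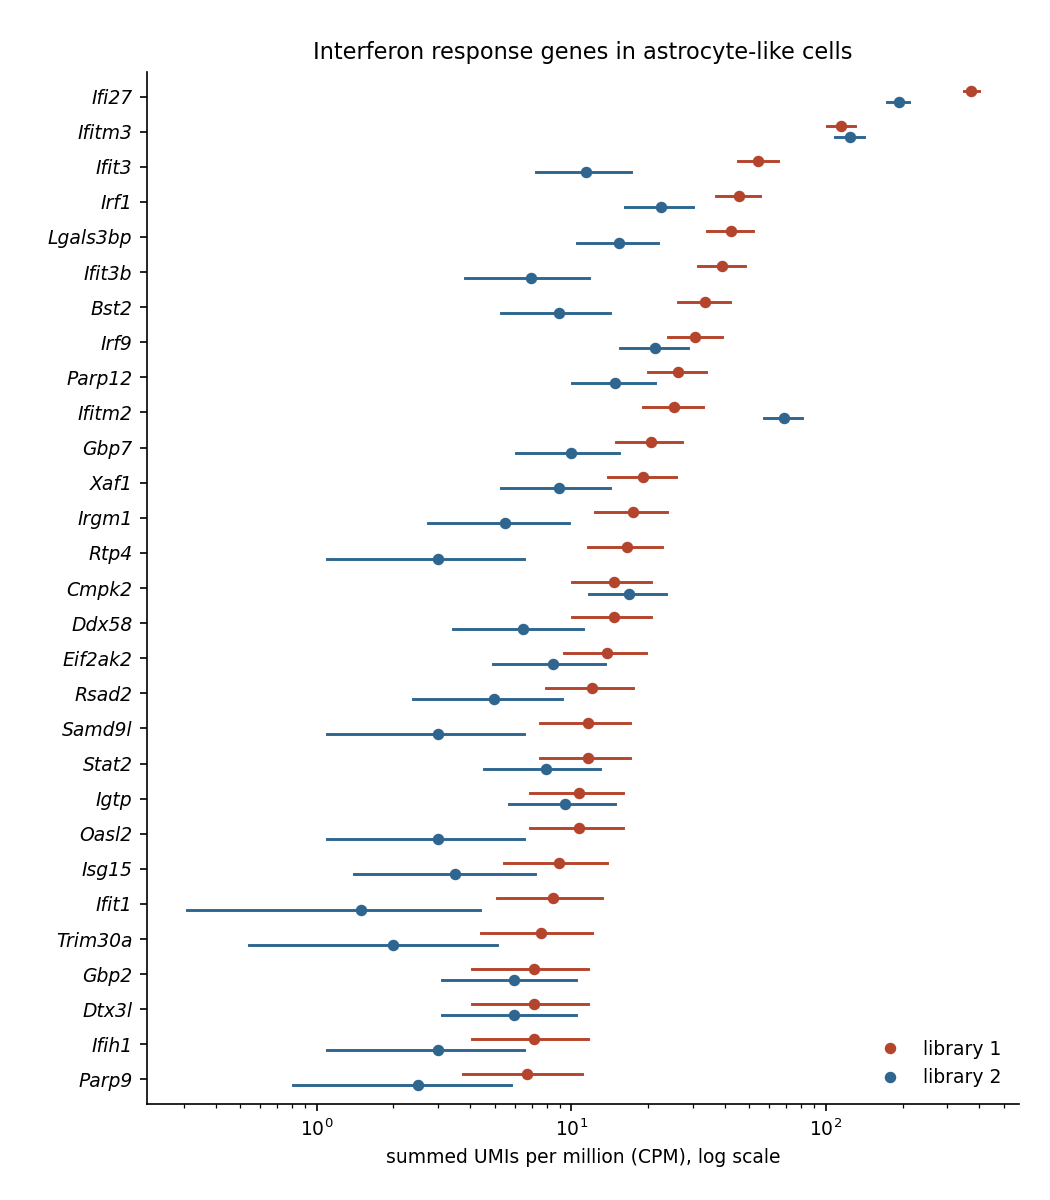
Level of each measured member in astrocyte-like cells (CPM from summed UMIs, log axis), library 1 and library 2, with exact 95% Poisson intervals that cover counting error only. Most members lie higher in library 1 (Ifit3 at 54.3 against 11.4 CPM), Ifitm3 lies at almost the same level in both (115 and 124 CPM) and Ifitm2 lies lower in library 1 (25.4 against 68.2 CPM).

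The IFIT genes, whose products bind viral RNA and hold back its translation, stood furthest apart. They lie side by side on chr19:34550694-34650009 in the order Ifit2, Ifit3, Ifit3b and Ifit1, all on the plus strand. Ifit3 had 122 UMIs in 93 astrocyte-like cells of library 1 and 23 UMIs in 23 cells of library 2, or 54.3 and 11.4 CPM, a log2 ratio of 2.25 (1.60 to 2.96). Ifit3b, a near-copy of Ifit3, had 39.2 and 6.97 CPM, a log2 ratio of 2.49 (1.67 to 3.42). The 2 genes can share reads, so the split between them is uncertain. Ifit1 had 19 UMIs in 13 cells of library 1 and 3 UMIs in 3 cells of library 2, a log2 ratio of 2.50 (0.74 to 4.90). Ifit2 had 11 and 3 UMIs, under the minimum.

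Among the RNA sensors 3 of 5 could be measured, and all 3 were at least 1.5-fold higher in library 1. Ddx58, the gene of the cytoplasmic RNA sensor RIG-I, had 14.7 CPM in library 1 and 6.47 CPM in library 2, a log2 ratio of 1.18 (0.22 to 2.23). Ifih1, which encodes MDA5, the sensor of long double-stranded RNA, had 7.13 and 2.99 CPM, and its interval held 0 (-0.17 to 2.90). Eif2ak2 encodes PKR, a kinase that stops translation when it meets double-stranded RNA, and its log2 ratio was 0.71. Dhx58, a regulator of these sensors, had 2 UMIs in each library.

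The transcription factors were nearer to each other in the 2 libraries. Irf1 had 45.4 CPM in library 1 and 22.4 CPM in library 2, a log2 ratio of 1.02 (0.50 to 1.56). Irf9 and Stat2, subunits of ISGF3, had log2 ratios of 0.52 (-0.05 to 1.11) and 0.54, so that 1 of 3 measured factors passed 1.5-fold. Irf7, which amplifies type I interferon production, had 11 UMIs in library 1 and 2 in library 2.

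The membrane restriction factors differed among themselves: 1 of the 3 was at least 1.5-fold higher, 1 at least 1.5-fold lower, and 1 had an interval that held 0. Bst2, or tetherin, which holds budding virus on the cell surface, had 33.4 CPM in library 1 and 8.96 CPM in library 2, a log2 ratio of 1.90 (1.14 to 2.73). Ifitm3, which blocks fusion of virus with endosomes, had 115 and 124 CPM, a log2 ratio of -0.11 (-0.37 to 0.14). Ifitm2, a related gene 53598 bases away on chromosome 7, had 57 UMIs in 46 cells of library 1 and 137 UMIs in 97 cells of library 2, a log2 ratio of -1.43 (-1.90 to -0.97). Its direction was the opposite of that of Bst2.

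The ISG15 system tags proteins with a ubiquitin-like modifier. Isg15 had 8.91 CPM in library 1 and 3.48 CPM in library 2, a log2 ratio of 1.35 (0.05 to 2.84). Its protease Usp18, which also dampens the interferon receptor, had 12 UMIs in library 1 and 1 in library 2. Uba7, the activating enzyme, had 4 and 0 UMIs. Oasl2, an OAS-like antiviral gene and the one measured member of its family, had 10.7 and 2.99 CPM, a log2 ratio of 1.84 (0.51 to 3.42).

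Of the PARP and DTX3L genes, which add ADP-ribose or ubiquitin to proteins, 3 of 4 were measured and 2 passed 1.5-fold. Parp9, the partner of the ubiquitin ligase Dtx3l, had 15 UMIs in library 1 and 5 in library 2, a log2 ratio of 1.42. Dtx3l had 16 and 12 UMIs, a log2 ratio of 0.25. The 2 genes overlap by 682 bases on opposite strands of chromosome 16, so counts there can be uncertain. Parp12 had 26.3 and 14.9 CPM, a log2 ratio of 0.82 (0.16 to 1.5). Parp14 had 11 UMIs in library 1 and none in library 2.

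The GTPases, which attack the membranes around intracellular microbes, were higher in library 1 in 4 of 4 measured cases, 2 of them by at least 1.5-fold. Irgm1, a regulator of this family, had 17.4 CPM in library 1 and 5.47 CPM in library 2, a log2 ratio of 1.67 (0.67 to 2.78). Gbp7 had 20.5 and 9.95 CPM, a log2 ratio of 1.04 (0.26 to 1.88). Igtp had 10.7 and 9.46 CPM and Gbp2 had 7.13 and 5.97 CPM, with log2 ratios of 0.18 (-0.75 to 1.13) and 0.25. Gbp3 had 13 and 4 UMIs, and members of the Gbp family resemble each other enough to share reads.

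Of the remaining 11 effectors 8 were measured, 7 were higher in library 1, and the same 7 were so by at least 1.5-fold. Rtp4, a receptor chaperone that also inhibits some viruses, had 37 UMIs in library 1 and 6 in library 2, a log2 ratio of 2.46 (1.21 to 4.00). Samd9l, a growth-restraining antiviral factor, had 11.6 and 2.99 CPM, a log2 ratio of 1.96 (0.64 to 3.53). Trim30a had 7.57 and 1.99 CPM, a log2 ratio of 1.93 (0.31 to 3.96). Lgals3bp, a secreted galectin-binding glycoprotein, had 42.3 and 15.4 CPM, a log2 ratio of 1.46 (0.86 to 2.09). Xaf1, a pro-apoptotic gene, had 19.2 and 8.96 CPM, a log2 ratio of 1.1 (0.27 to 1.98). Ifi27 had 838 UMIs in 398 cells of library 1 and 387 UMIs in 243 cells of library 2, a log2 ratio of 0.95 (0.78 to 1.13). It supplied 35.8% of all member UMIs in library 1 and 31.9% in library 2, so it weighs on any sum over the list.

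Rsad2 and Cmpk2 are divergent neighbours on chromosome 12 whose products act together to make a chain-terminating nucleotide. They differed in these cells: Rsad2 had 12 CPM in library 1 and 4.98 CPM in library 2, a log2 ratio of 1.27 (0.18 to 2.48). Cmpk2 had 14.7 and 16.9 CPM, a log2 ratio of -0.20 (-0.94 to 0.53). Ifi35 had 8 and 0 UMIs and Ifi44 had 1 and 0.

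The astrocyte-like class consisted of 2 clusters in different proportions. The larger, c0 (523 cells in library 1 and 298 in library 2), was led by Cxcl14, Slc7a10, Htra1 and Aqp4, and the smaller, c3 (125 and 255 cells), by Gfap, Prss56, S100a6 and Thbs4. The member median was 1.17 in c0 (18 of 21 measured members higher in library 1, where 52.7% of all genes were) and 1.48 in c3 (12 of 14 higher, where 48.8% of all genes were). The medians of all genes were 0.03 and -0.03. In c0 the other 3 measured members, Ifitm2 and Igtp among them, were at least 1.5-fold lower in library 1, as were 736 of 9345 genes. In c3 1 member was, as were 973 of 7791 genes. Ifitm3 did not keep its value: it had 92.3 and 50.6 CPM in c0, a log2 ratio of 0.87 (0.41 to 1.35), but 194 and 202 CPM in c3, a log2 ratio of -0.06 (-0.43 to 0.30). Cluster c3, where Ifitm3 was higher than in c0 in both libraries, held more of the class in library 2. Ifitm2 was lower in library 1 in both, with log2 ratios of -0.64 (-1.52 to 0.24) in c0 and -0.86 (-1.48 to -0.29) in c3, less than the -1.43 of the class as a whole. Igtp had a log2 ratio of -0.76 in c0, the opposite sign to the class, with an interval that held 0 (-1.99 to 0.47).

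A further cluster, c2 (245 cells in library 1 and 163 in library 2), was unnamed. It was led by Cxcl10, Nr4a1, Atf3, Junb, Maff, Cebpb, Irf8, Notum, Nptx2 and Socs3, most of which are immediate early or inflammatory genes. There the member median was 1.59 and 26 of 27 measured members were higher in library 1, where 58.4% of all genes were. Ifit1 had 31.8 CPM in library 1 and 0.994 CPM in library 2, but 25 of its 49 UMIs in library 1 lay in 4 cells. Without these 4 cells Ifit1 had 15.9 and 0.994 CPM, the library 2 value resting on 1 UMI. Ifit3 had 24 of its UMIs of library 1 in the same 4 cells. Without them it had 6 and 3 UMIs, a log2 ratio of 0.42 (-1.81 to 3.04). The median and count of members for c2 include the 4 cells. Irgm1 had 63.6 and 18.9 CPM, and 51.0 and 18.9 CPM without the 4 cells. Ifitm2 was again the exception, with 29.2 and 91.4 CPM, a log2 ratio of -1.65. Immediate early and dissociation response genes, 32 listed, were mostly higher in library 1. In c2 itself 20 of 30 measured were higher and 8 by at least 1.5-fold (median log2 ratio 0.17), where 58.4% and 13.6% of all genes were. In c3 these counts were 24 and 20 of 26 (median 0.81), where 48.8% and 11.4% of all genes were. In c0 they were 20 and 9 of 23 (median 0.47), where 52.7% and 10.9% were. Over the astrocyte-like class as a whole they were 16 and 3 of 27 (median 0.10), where 47.9% and 8.30% were. In activated cells 24 of 26 were higher (median 0.37), where 56.1% of all genes were. In neuroblasts 21 of 23 were higher (median 0.28), where 54.4% of all genes were. Their part in the member differences was not tested.

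Summed over all 43 members, astrocyte-like cells had 1044 CPM (1002 to 1087) in library 1 and 605 CPM (571 to 639.7) in library 2. Without Ifi27, Ifitm2 and Ifitm3 the other 40 members summed to 530.5 and 219 CPM. Cluster c2, with the 4 cells described above included, had 1141 CPM (1089 to 1196) and 589 CPM (543 to 639). Every cluster with at least 50 cells in each library had the higher sum in library 1 except c9, which had 403 CPM (342 to 471) in library 1 and 455 CPM (399 to 517) in library 2. A single c9 cell of library 2 held 102 of its 237 member UMIs, and without that cell the c9 sum in library 2 was 266 CPM.

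**Figure D2:**
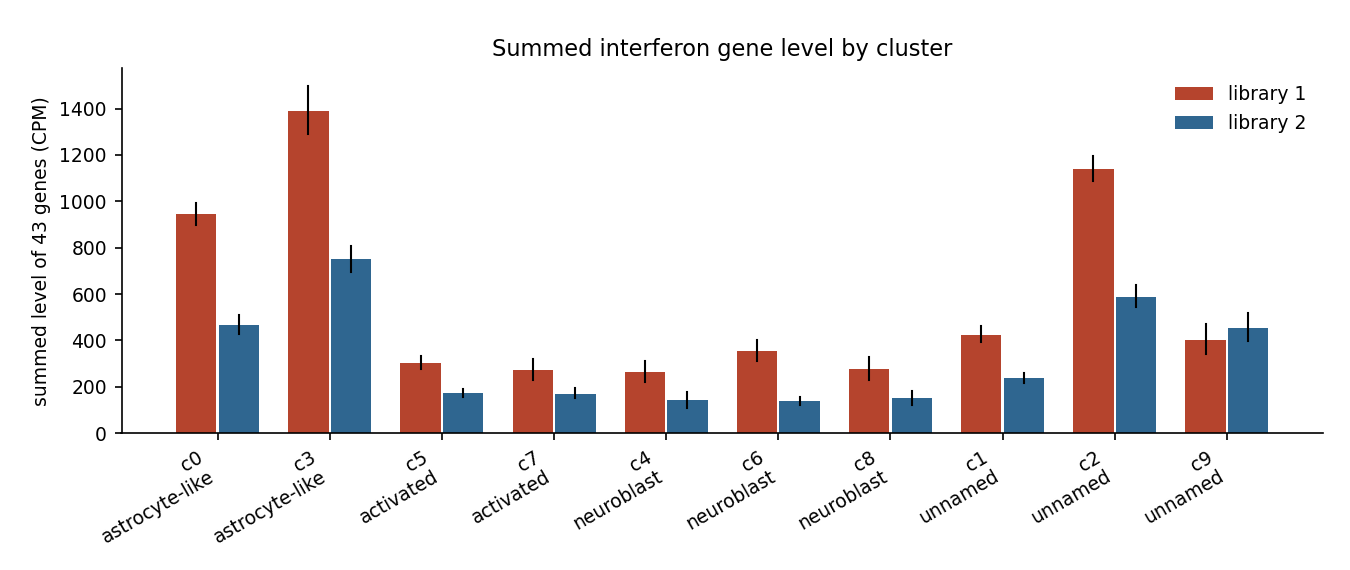
Summed level of the 43 members (CPM from summed UMIs) by library in each cluster with at least 50 cells in each library. Bars carry exact 95% Poisson intervals that cover counting error only. Of these, clusters c3 (1391 and 749 CPM), c2 (1141 and 589 CPM) and c0 (944 and 467 CPM) lie highest in both libraries. Among them c9 alone has library 2 not lower (403 and 455 CPM). The ependymal cluster, not shown, had 1404 CPM from 3 cells of library 1 and 1009 CPM from 13 cells of library 2.

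In activated cells fewer members could be measured, and the median over them was lower than in astrocyte-like cells. Of 16 measured members 11 were higher in library 1, where 56.1% of all genes were. By at least 1.5-fold 6 were, where 8.00% of all genes were. The member median log2 ratio was 0.28 against 0.04 for all genes, and 12 of 16 intervals held 0. The 14 members measured in both classes had a median of 0.26 in activated and 0.76 in astrocyte-like cells, and 6 of the 14 had the higher ratio in activated cells; the difference between the classes was not tested. Ifi27 had 113 CPM in library 1 and 41.8 CPM in library 2, a log2 ratio of 1.43 (1.13 to 1.73). Ifitm3 had 23.1 and 8.08 CPM, a log2 ratio of 1.52 (0.83 to 2.23). Both stood apart, unlike Ifitm3 in astrocyte-like cells. Irf9 had 9.06 and 3.35 CPM, a log2 ratio of 1.44 (0.33 to 2.60). Gbp3 had 7.25 and 1.39 CPM, a log2 ratio of 2.38 (0.86 to 4.18). Ifitm2 had 23.1 and 27.0 CPM, a log2 ratio of -0.23.

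At the other end Parp12 had 5.44 CPM in library 1 and 10.6 CPM in library 2, a log2 ratio of -0.96 (-2.03 to 0.01), and was the 1 member at least 1.5-fold lower, where 6.10% of all genes were. Eif2ak2 and Parp9 had log2 ratios of -0.49 (-1.37 to 0.35) and -0.30 (-1.85 to 1.11). Several members that were higher in library 1 in astrocyte-like cells were under the minimum here. Ifit3 had 9 UMIs in library 1 and 2 in library 2, and Rtp4 had 12 and 4. Samd9l had 11 and 2, and Isg15 had 5 and 0. Zbp1, Sp100, Oasl1, Uba7, Parp14, Slfn2 and Trim30a had none, which allows up to 1.36 CPM in library 1 and 0.836 CPM in library 2 (3 counts).

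In neuroblasts 9 of 11 measured members were higher in library 1, where 54.4% of all genes were. By at least 1.5-fold 6 of the 11 were, where 10.1% of all genes were. The member median was 0.59 against 0.04 for all genes, and 7 of 11 intervals held 0. The 10 members measured in both neuroblasts and astrocyte-like cells had medians of 0.80 in neuroblasts and 0.62 in astrocyte-like cells. Ifi27 had 126 CPM in library 1 and 49.6 CPM in library 2, a log2 ratio of 1.34 (1.03 to 1.66). Ifitm3 had 16.8 and 4.42 CPM, a log2 ratio of 1.92 (0.93 to 3.0), and Irf9 had 10.2 and 3.74 CPM, a log2 ratio of 1.45 (0.27 to 2.68). These 3 genes had intervals above 0 in both activated cells and neuroblasts. In neuroblasts of library 1, however, 11 of the 28 Ifitm3 UMIs came from 1 cell, so its interval there is too narrow. Dtx3l had 7.18 and 3.06 CPM, a log2 ratio of 1.23 (-0.14 to 2.66), with 3 of its 12 UMIs of library 1 in that same cell.

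Ifitm2 was the lowest in neuroblasts, with 9.58 CPM in library 1 and 17.3 CPM in library 2, a log2 ratio of -0.86 (-1.77 to -0.02). It was the 1 member at least 1.5-fold lower, where 6.85% of all genes were. Eif2ak2 and Stat2 had log2 ratios of -0.08 and 0.23. Ifit3 had 13 UMIs in library 1 and 1 in library 2, Usp18 had 7 and 0, and Isg15 had 17 and 0, but 15 of the 17 Isg15 UMIs came from 1 cell. Sp100, Oas1a, Gbp2, Ifi44 and Slfn2 had no UMI in either library, which allows up to 1.80 CPM in library 1 and 1.02 CPM in library 2 (3 counts). The neuroblast clusters were mixed differently in the libraries, with c4 the largest in library 1 (184 of 361 cells) and c6 in library 2 (190 of 494).

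**Figure D3:**
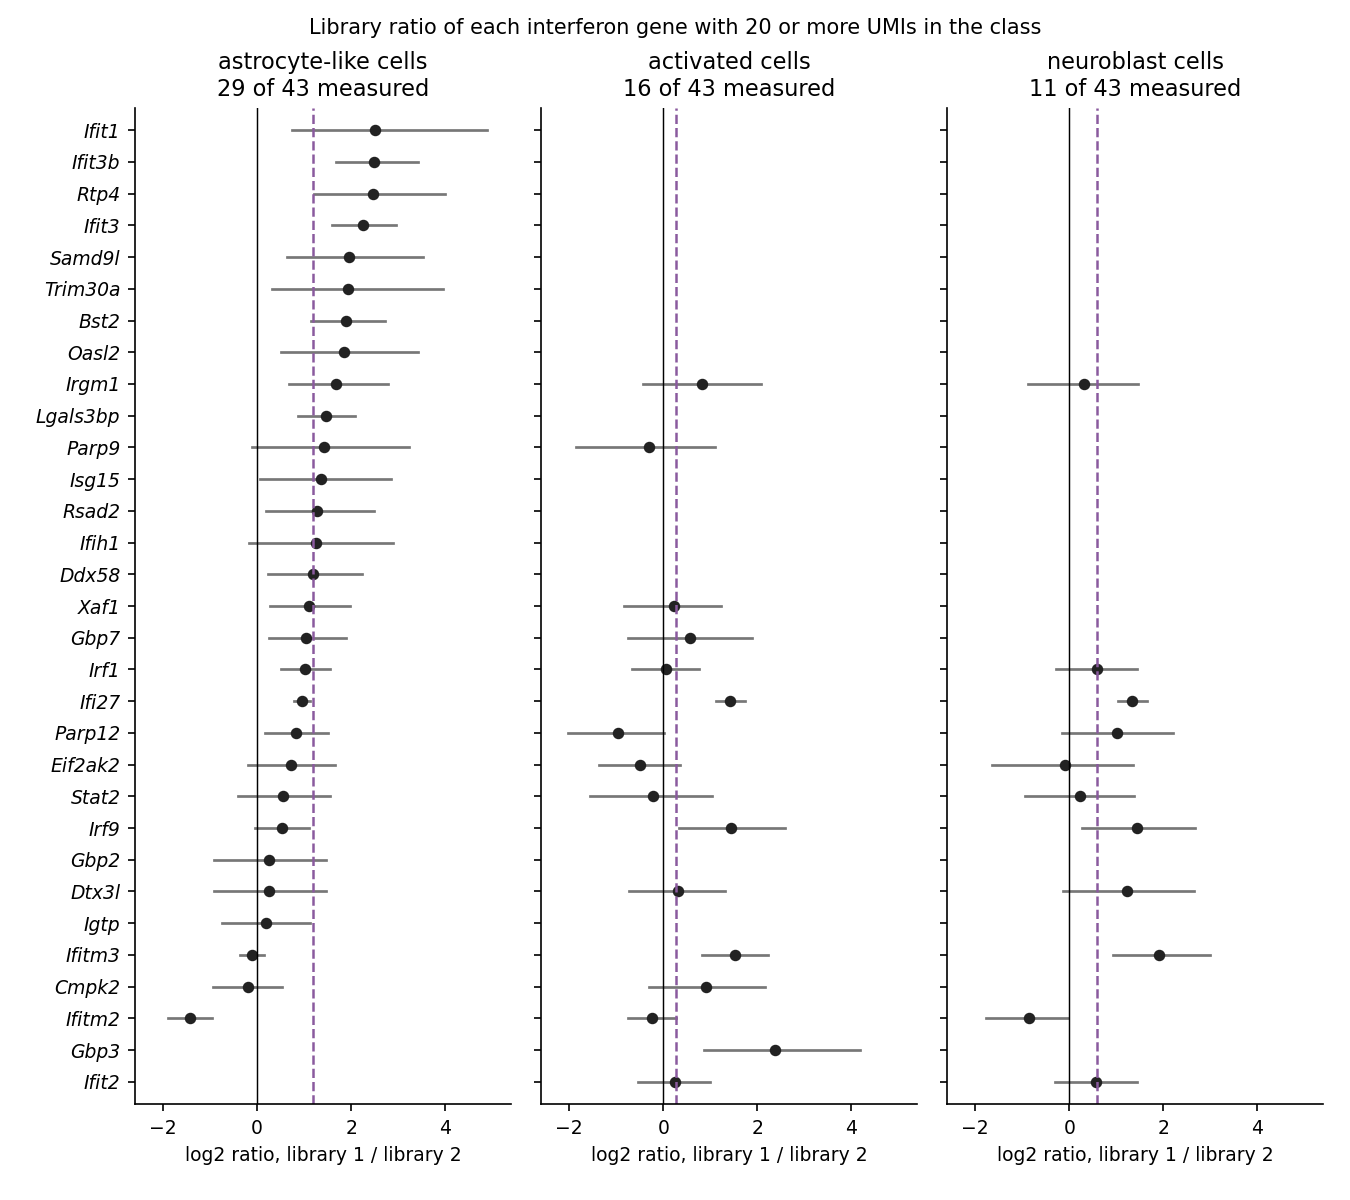
Log2 ratio of CPM, library 1 over library 2, of every member with at least 20 UMIs over both libraries, in astrocyte-like, activated and neuroblast cells, with exact conditional binomial 95% intervals that cover counting error only. Medians were 1.18, 0.28 and 0.59, and Ifitm2 lies below 0 in all 3 classes.

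Within each library the members were mostly lower in activated cells than in astrocyte-like cells. At least 1.5-fold lower were 25 of 29 measured members in library 1, where 32.8% of all genes were, and 15 of 19 in library 2, where 33.1% of all genes were. The member median log2 ratio (activated over astrocyte-like) was -1.76 in library 1 and -1.54 in library 2, against 0.08 and 0.03 for all genes. Several members reached the minimum through the astrocyte-like side alone (Ifit3b with 1 UMI in activated and 88 in astrocyte-like cells of library 1) and so had to be lower. These counts and medians, and those for neuroblasts below, therefore describe the measured members and are no evidence on the whole list. Lgals3bp had 2.72 CPM in activated and 42.3 CPM in astrocyte-like cells of library 1, a log2 ratio of -3.96 (-5.44 to -2.78). In library 2 its log2 ratio was -5.79 (-11.14 to -3.21), resting on 1 UMI in activated cells. Ifit3 had log2 ratios of -3.74 and -4.36 in library 1 and library 2, Ifitm3 of -2.31 and -3.94, and Igtp of -2.56 and -3.08. The least lower among members of 1 direction in both libraries were Ifitm2 (-0.14 and -1.33), Xaf1 (-1.49 and -0.61) and Stat2 (-1.51 and -0.75).

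Neuroblasts, set against the same astrocyte-like cells, had at least 1.5-fold lower levels for 24 of 29 members in library 1, where 32.6% of all genes were, and for 16 of 19 in library 2, where 33.2% of all genes were. The median log2 ratio was -1.68 in library 1 and -1.96 in library 2, against 0.10 and 0.05 for all genes. Lgals3bp (-5.14 and -3.92 in library 1 and library 2), Ifit3 (-2.80 and -5.07), Ifitm3 (-2.78 and -4.82) and Gbp7 (-2.51 and -4.87) were the lowest of those with 1 direction in both. In these ratios Lgals3bp rests on 2 and 3 neuroblast UMIs, and Ifit3 and Gbp7 on 1 UMI each in library 2. Stat2 (-0.69 and -0.38), Ddx58 (-2.03 and -0.67) and Eif2ak2 (-1.72 and -0.94) were less so.

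Ifit2 ran against this. It had 12.2 and 10.3 CPM in activated cells of library 1 and library 2 and 13.2 and 8.83 CPM in neuroblasts, against 4.90 and 1.49 CPM in astrocyte-like cells. The log2 ratio over astrocyte-like cells was 1.32 (0.26 to 2.48) and 2.79 (1.13 to 5.13) in activated cells, and 1.43 (0.32 to 2.62) and 2.56 (0.86 to 4.93) in neuroblasts. It was the 1 measured member at least 1.5-fold higher in each of these 4 ratios, where 35.5%, 32.3%, 35.8% and 33.9% of all genes were. Its neighbour on chromosome 19, Ifit3, was lower in both classes in both libraries.

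**Figure D4:**
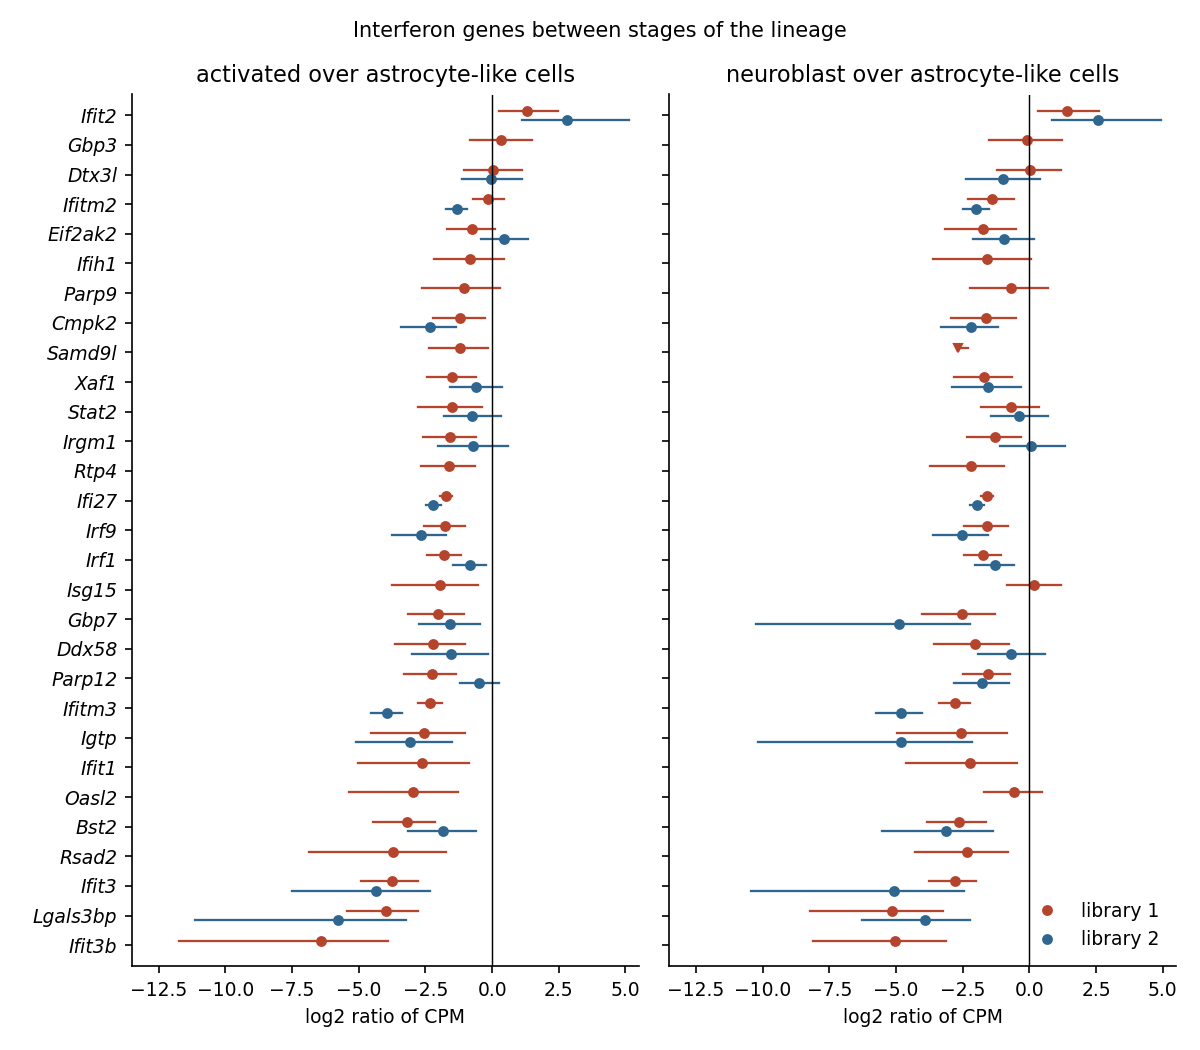
Log2 ratio of CPM, activated over astrocyte-like and neuroblast over astrocyte-like cells, of each measured member in library 1 and library 2, with exact conditional binomial 95% intervals that cover counting error only (a triangle marks a bound). Medians lie between -1.96 and -1.54, and Ifit2 lies above 0 in all 4 ratios.

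To count cells and not UMIs, every cell with at least 2000 UMIs was thinned to 2000, and cells with 3 or more summed member UMIs were counted. Among astrocyte-like cells these were 139 of 577 in library 1 (24.1%, Clopper-Pearson 20.7 to 27.8) and 61 of 518 in library 2 (11.8%, 9.13 to 14.9). Thinning is random, and the mean over all draws was 27.3% in library 1 and 14% in library 2, so the draw shown lies low. Without thinning the shares were 50.9% and 33.1%, at median depths of 3446.5 and 3433 UMIs. Left out as too shallow were 71 and 35 cells.

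Few cells of the other classes reached 3 UMIs. Of activated cells 8 of 202 did in library 1 (3.96%, 1.73 to 7.65) and 1 of 347 in library 2 (0.288%, 0.00730 to 1.60), with means over all draws of 3.54% and 0.801%. Of neuroblasts 9 of 331 did in library 1 (2.72%, 1.25 to 5.10) and 1 of 480 in library 2 (0.208%, 0.00527 to 1.16), with means over all draws of 2.49% and 0.164%. Median depths were 10721 and 10494 UMIs for activated cells and 3554 and 5027.5 UMIs for neuroblasts. Ratios of these shares between libraries rest on 1 cell in library 2. Set against astrocyte-like cells at equal depth, both classes had the smaller share in each library.

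**Figure D5:**
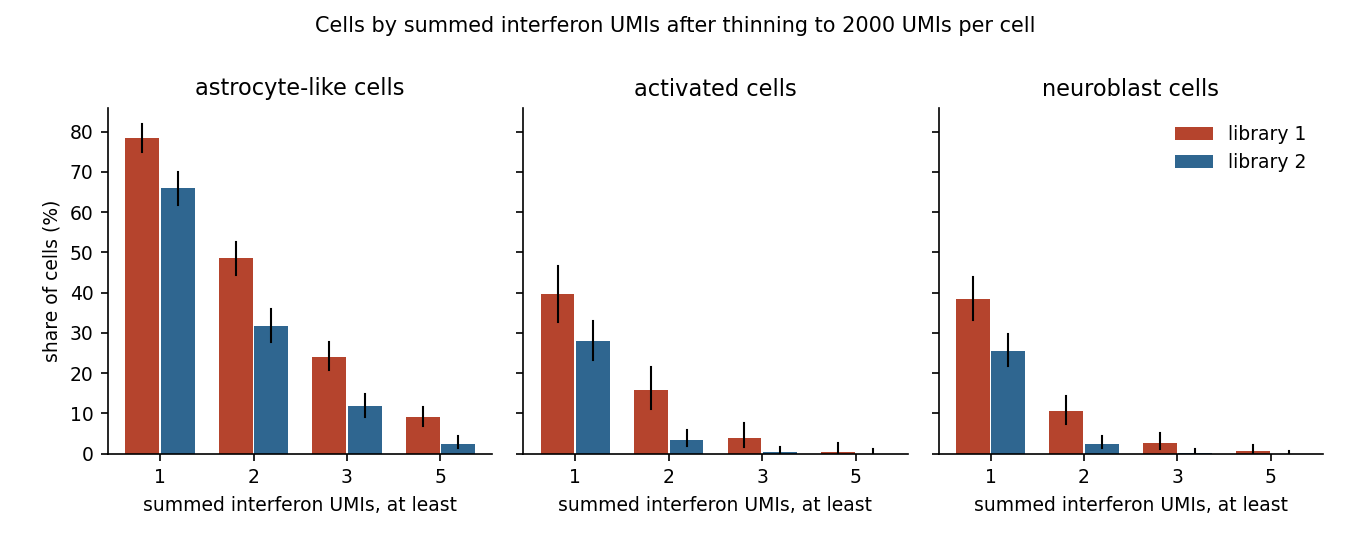
Share of cells (percent) with at least 1, 2, 3 or 5 summed member UMIs after thinning to 2000 UMIs, per class and library. Intervals are exact Clopper-Pearson 95% intervals that cover counting error only. At 3 or more UMIs astrocyte-like cells stand at 24.1% in library 1 and 11.8% in library 2. At that threshold activated cells and neuroblasts stand at 3.96% or less.

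The astrocyte-like difference was spread over many cells and was also carried by a few. Cells with no member UMI at all made up 10.8% of astrocyte-like cells in library 1 and 20.6% in library 2. The top 5% of cells held 25.9% and 20.9% of the member UMIs. At 10 or more UMIs after thinning there were 12 cells in library 1 (7 astrocyte-like, 1 neuroblast and 4 of cluster c2) and 3 in library 2, none of them in the 3 named classes. The highest astrocyte-like cell had 78 member UMIs of 23 members among 3719 UMIs in all, with 11 of Ifit3, 8 of Ifi27, 7 of Ifit3b, 7 of Bst2 and 6 of Isg15. The neuroblast had 73 of 25 members among 8445, with 15 of Isg15.

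The 7 high astrocyte-like cells of library 1 held 32 of the 75 Bst2 UMIs, 9 of the 19 of Ifit1 and 8 of the 20 of Isg15, but 39 of 838 of Ifi27 and 1 of 102 of Irf1. Without the 12 and 3 high cells the astrocyte-like median was 0.86. The count at least 1.5-fold higher was 17, over fewer measured members, so it is not comparable with the 21 of 29 above. With all cells 8.30% of all genes were at least 1.5-fold higher, and that share was not taken without the high cells. Bst2 then had a log2 ratio of 1.11, Ifit3 1.96, Ifi27 0.90 and Irf1 1.02, and Ifit1, Isg15, Parp9 and Trim30a were under the minimum. In the 15 high cells microglia markers had 0 to 2 UMIs and T cell markers 0. Of the high cells, 2 of cluster c1 in library 2 had 83 and 95 UMIs of endothelial markers.

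Whether members appeared in the same cells depended on the gene and on a few cells. In library 1 astrocyte-like cells with a thinned Bst2 UMI (24 cells) had a mean of 6.67 UMIs of the other members, and cells without one had 1.75. For Ifit3 (51 cells) these means were 4.14 and 1.71. Without the high cells they were 3.21 and 1.71 for Bst2 and 2.33 and 1.66 for Ifit3. The share of cells with 2 or more UMIs of other members was 83.3% (62.6 to 95.3) with Bst2 and 46.5% (42.3 to 50.7) without it. For Ifit3 the shares were 54.9% (40.3 to 68.9) and 44.9% (40.6 to 49.2), with intervals that overlap, and for Irf1 42.9% and 46.9%. In library 2 cells with Bst2 (6 cells) had 1.17 and cells without 1.18, and for Ifit3 (15 cells) the means were 1.00 and 1.17. Ifitm2 in library 1 showed little of this, with 2.32 and 1.96.

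The rest of the pathway was uneven in astrocyte-like cells. Of the 21 interferon genes searched 0 reached 20 UMIs. Of 8 measured receptors and kinases 4 were higher in library 1, and the median log2 ratio was 0.00. Tyk2, a kinase of the type I receptor, had 8.46 CPM in library 1 and 2.99 CPM in library 2, a log2 ratio of 1.5 (0.12 to 3.12), and the receptor gene Ifnar1 had 28.5 and 33.8 CPM, a log2 ratio of -0.25. Of 6 measured STAT and IRF genes outside the list 4 were higher, 3 by at least 1.5-fold. Of 7 measured negative regulators 4 were higher and none by 1.5-fold, with Socs3 at 190.2 and 144 CPM.

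Among 14 measured of 52 other interferon-stimulated genes 12 were higher in library 1 and 5 by at least 1.5-fold, with a median of 0.37. The median of the 43-gene list was 1.18 over its 29 measured members. Zc3hav1, or ZAP, which binds CpG-rich viral RNA, had 17.4 CPM in library 1 and 2.49 CPM in library 2, a log2 ratio of 2.80 (1.46 to 4.5). In activated cells it had 17.2 and 2.23 CPM, and in neuroblasts 15.6 and 3.74 CPM. Nucleic acid sensing genes had a median of 0.02 over 8 measured of 15. Of 15 measured genes of antigen presentation by MHC class I and the immunoproteasome 13 were higher and 8 by at least 1.5-fold, with Psmb8 at 19.6 and 2.49 CPM, a log2 ratio of 2.98.

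Markers of other cell types also differed between the libraries, in both directions. In astrocyte-like cells mural markers summed to 104 CPM in library 1 and 209 CPM in library 2, and ependymal markers to 206 and 323 CPM. All 12 oligodendrocyte markers had a UMI in astrocyte-like cells, and they summed to 608 CPM in library 1 and 259.8 CPM in library 2. In activated cells the sums were 756 and 76.1 CPM, and in neuroblasts 375 and 82.6 CPM. The oligodendrocyte cluster itself held 99 cells in library 1 and 9 in library 2. Its member sum in library 1 was 527 CPM (461 to 600.3). In that library astrocyte-like cells had 1044 CPM, activated cells 295 CPM and neuroblasts 305 CPM. Oligodendrocyte markers had 5 or more UMIs in 60 and 6 astrocyte-like cells of library 1 and library 2. The counts were 78 and 1 among activated cells and 26 and 0 among neuroblasts. Microglia markers summed to 73.0 and 67.2 CPM in astrocyte-like cells, with 9 of 14 holding a UMI in each library. Aif1, Cx3cr1, Laptm5 and Ptprc were at 0 in both libraries. T and NK cell markers, 1 of 10 with a UMI, summed to 1.34 and 2.49 CPM. Endothelial markers summed to 9.80 and 17.9 CPM, with 3 of 11 holding a UMI in library 1 and 4 in library 2. Cldn5, Cdh5, Flt1 and Kdr were among those at 0 in both. The part of RNA of other cell types in the differences was not tested.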

How the data were processed

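Cells of 2 droplet libraries (Chromium 3′ kit, per the labels) were measured as deposited UMI counts per gene and barcode. Cell Ranger 2.0.0 and the builds GRCm38.p3 and mm10 are named in the submitters' processing notes; no other setting is stated by them. The members and gene lists were chosen with earlier results of these data known.

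A barcode was kept with 500 genes or more and no more than 10% mitochondrial UMIs; 15 barcodes of library 1 and 11 of library 2, marked by Scrublet at an expected 1.5%, were removed (0.811% and 0.527%). Kept cells were clustered in scanpy 1.11.5 on 2000 variable genes outside the lists (30 components, 15 neighbours, Leiden resolution 1). Clusters were named from 179 markers by a rule set after the clusters had been seen: at least 3 markers 1.5-fold higher, no other class leading. Python 3.11.15, numpy 2.4.6 and scipy 1.17.1 were used.

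UMIs were summed per class and library and scaled to CPM. A 3′ UMI level is not compared between genes. Ratios need 20 UMIs over both sides. Intervals are Poisson, conditional binomial (ratios) or Clopper-Pearson (shares). Total depth was 10440891 UMIs in library 1 and 13330251 in library 2. All 43 members may be named; full values go to the 12 with most UMIs, the 6 highest and 4 lowest ratios in astrocyte-like cells, and fewer elsewhere. Scripts were tested on simulated data. Gene positions are GENCODE M21 on GRCm38. Alternatives covered doublets, filters, resolution, clustering genes, scaling, minimum, thinning and threshold.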

Additional observations from a re-analysis of the deposited data

How the results depend on the processing

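No paired analysis was possible because each age is 1 library and none can be left out. Of 146 alternative values of the medians, counts and shares, 128 stayed within 1.5 times the count or within the interval of the value. The other 18 did not. Among medians and shares 0 reversed, and the rule could not call a count reversed. Of 381 values of single genes 11 moved. A change of sign was called reversed only where the main interval excluded 0. The sign changes of Ifitm3, Igtp and Cmpk2 given below therefore count as moved. The astrocyte-like count of 21 of 29 became 13 with cells thinned to 2000 UMIs before summing and 10 with a minimum of 50 UMIs. Both were over fewer measured members. In cluster c3 alone it was 12 of 14, where 11.4% of all genes were at least 1.5-fold higher. The activated count of 6 of 16 became 12 at Leiden resolution 2 and 1 after thinning. At minimums of 10 and 50 UMIs it was 10 and 2. In the largest activated cluster it was 3 of 10, where 8.66% of all genes were. The neuroblast count of 6 of 11 became 1 after thinning and 14 and 2 at those minimums. In the largest neuroblast cluster it was 0 of 1 measured member, where 11.4% of all genes were. In cluster c6 alone it was 3 of 6, where 8.90% of all genes were. In c8 alone it was 1 of 1, with a median of 1.48, where 9.87% of all genes were. The c3, c6 and c8 splits, the mean over all draws and the removal of the high cells were chosen after seeing the data. Smaller minimums and fewer cells or UMIs change how many members are measured, so a count given without that number is no share. The astrocyte-like ratio of shares, 2.05, became 1.53 at a threshold of 2 UMIs, 3.59 at 5 UMIs and 3.59 without Ifitm2, Ifitm3 and Ifi27. In the largest astrocyte-like cluster Irf9 had 1.17, Ifitm2 -0.64, Ifitm3 0.87, Bst2 3.27 and Igtp -0.76; in c3 alone Irf1 had 1.68, Ifitm2 -0.86, Irgm1 3.06, Cmpk2 0.59 and Ifi27 1.15; without the high cells Bst2 had 1.11. The astrocyte-like median kept its sign under every alternative run, between 0.86 and 1.48. With 1 library a side, pooled mice, capture and depth cannot be told apart from age, and low UMI counts limit the activated and neuroblast values.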
